A study of Mus musculus with 16 samples.

Results

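Signalling through the CSF1 receptor keeps microglia and other tissue macrophages alive. The receptor, Csf1r, is a tyrosine kinase with a pair of ligands: Csf1, made by several cell types including glia, and Il34, made in the brain mainly by neurons. The myeloid transcription factors Spi1 (PU.1), Irf8 and Runx1 act upstream or beside the receptor in the microglial lineage, and Mef2c is used both by microglia and, at high level, by cortical neurons. The 7 genes Csf1r, Csf1, Il34, Spi1, Irf8, Runx1 and Mef2c were taken by symbol from a table of 54532 entries. All 7 were present once and passed the filter on low counts.

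RNA of brain tissue, not sorted into cell types, from female mice of 9 months was sequenced in 16 libraries, in 4 groups of 4: mice with Ch25h (Ch25h+/+) that were Tau- or Tau+, and mice without it (Ch25h-/-), again either Tau- or Tau+. Ch25h encodes the enzyme that makes 25-hydroxycholesterol, and -/- marks the homozygous loss of the gene. Tau+ was read as carrying a tau transgene, whose promoter and mutation are not given in the sources used here. The sample labels name frontal cortex and the series text names hippocampus. The labels do not say that each library came from its own animal, so p-values measure the spread between these libraries.

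Depth was 15530352 to 25602500 counts per library. Ch25h had 0 counts in all 8 Ch25h-/- libraries and 5 to 30 in the Ch25h+/+ libraries, and Prnp was at 1414 to 1935 CPM (counts scaled to library size) in Tau+ and 708 to 839 CPM in Tau-. The 6 cortex markers summed to 629 to 851 CPM and the 6 hippocampus markers to 75.6 to 162 CPM. In 7 of the 8 Ch25h-/- libraries the ribosomal RNA transcript CT010467.1 was at 2289 to 5684 CPM on total counts, against 111 to 475 in the other 9, and those 7 also held more Malat1. Ch25h-/- Tau+ replicate 1 was the exception. With no rRNA-rich Ch25h+/+ library, this class and the loss of Ch25h cannot be told apart beyond that library.

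The receptor, 1 ligand and a pair of lineage factors shared a pattern: each was high in Ch25h+/+ Tau+ and lower in all libraries of the other 3 groups. In Ch25h+/+, tau raised Csf1r 1.41-fold, Csf1 1.64-fold, Spi1 1.99-fold and Irf8 2.08-fold. These 4 of 7 genes passed the threshold (adjusted p under 0.05 over all genes tested), where 1.56% of the 17736 genes tested were called and 1.47% were called higher. Leaving out 1 library moved the share called over 1.5 times for 2 of 16, to a lowest of 0.892% without Ch25h+/+ Tau+ replicate 4. For each of the 4 genes, every Tau+ library exceeded every Tau- library, which held for 3.89% of genes. Il34, Mef2c and Runx1 did not pass. The median log2 fold change of the 7 genes was 0.72, against -0.008 over all genes.

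**Figure D1:**
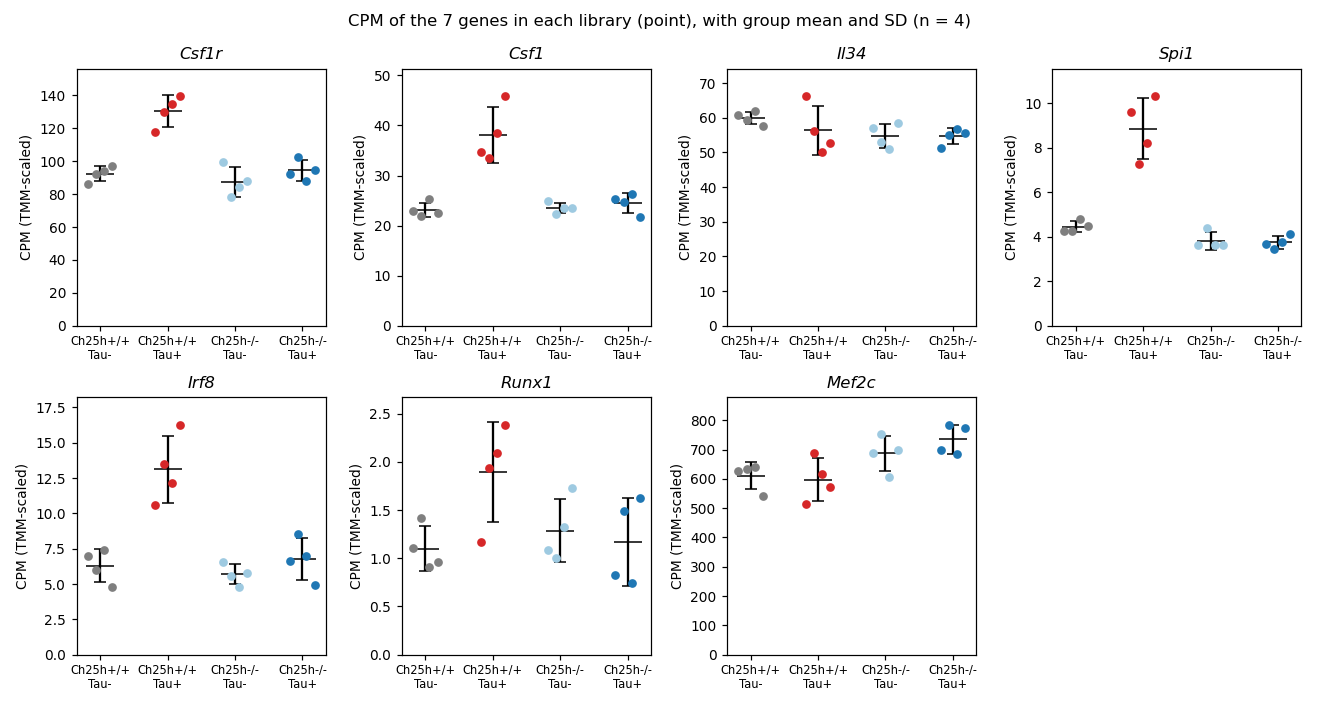
CPM on TMM-scaled library sizes (y axis, from 0) of each gene in the 4 groups (x axis); points are libraries, the bar and whiskers are the mean and SD of 4. Csf1r, Csf1, Spi1 and Irf8 stand apart in Ch25h+/+ Tau+, where Csf1r lies at 118 to 140 CPM, while Il34 stays between 50.3 and 66.2 CPM in every library.

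Csf1r lies on chromosome 18 (GRCm38, 61100598 to 61132149, plus strand). Its 4 Ch25h+/+ Tau- libraries read 86.4, 92.3, 94.4 and 96.8 CPM, and the Ch25h+/+ Tau+ libraries 118, 130, 135 and 140 CPM. The Ch25h-/- libraries read 78.1, 84.4, 87.8 and 99.7 CPM in Tau- and 88.0, 92.1, 94.7 and 103 CPM in Tau+. Every Ch25h+/+ Tau+ library thus exceeded all 12 others, and the other 3 groups overlapped each other. Mean levels were 131 ± 9.50 CPM in Ch25h+/+ Tau+, 94.4 ± 6.25 in Ch25h-/- Tau+, 92.5 ± 4.46 in Ch25h+/+ Tau- and 87.5 ± 9.07 in Ch25h-/- Tau- (SD, n = 4 each). The tau effect in Ch25h+/+ was 0.50 on the log2 scale (standard error 0.08, adjusted p 0.00153). Exons of Csf1r share 873 bases with Hmgxb3 on the opposite strand, and the use of strand in counting is not given. Hmgxb3 differed by -0.12 on the log2 scale in the same comparison (adjusted p 0.726).

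Of the ligands, Csf1 (chromosome 3, 107741048 to 107760469, minus strand) rose and Il34 (chromosome 8, 110741829 to 110805924, minus strand) did not pass. Csf1 read 21.99, 22.5, 22.9 and 25.2 CPM in Ch25h+/+ Tau- and 33.4, 34.6, 38.4 and 45.9 CPM in Ch25h+/+ Tau+. In Ch25h-/- it read 22.3 to 24.8 CPM in Tau- and 21.8 to 26.3 CPM in Tau+, so these groups overlapped. The tau effect on Csf1 in Ch25h+/+ was 0.72 on the log2 scale (standard error 0.10, adjusted p 0.000348).

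Il34, made mainly by neurons, averaged 59.9 ± 1.85 CPM in Ch25h+/+ Tau-, 56.3 ± 7.04 in Ch25h+/+ Tau+, 54.8 ± 3.46 in Ch25h-/- Tau- and 54.7 ± 2.37 in Ch25h-/- Tau+ (SD, n = 4 each). The groups overlapped in every comparison. The tau effects on Il34 were -0.09 (standard error 0.08) and -0.00 (0.08) on the log2 scale in Ch25h+/+ and Ch25h-/-. The Ch25h+/+ Tau+ group was the widest, with replicate 1 at 66.2 CPM.

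Per kilobase of annotated exon, Il34 exceeded Csf1 in every group, by 28.8 to 7.21 CPM per kb in Ch25h+/+ Tau+ and by 30.6 to 4.39 in Ch25h+/+ Tau-. Within a library, the log2 ratio of Csf1 to Il34, not scaled to length, was -1.35 ± 0.06 in Ch25h+/+ Tau- and -0.56 ± 0.33 in Ch25h+/+ Tau+ (SD, n = 4 each). It was -1.20 ± 0.08 in Ch25h-/- Tau- and -1.15 ± 0.14 in Ch25h-/- Tau+. The balance of the ligand transcripts therefore lay nearer to Csf1 in Ch25h+/+ Tau+, whose 4 libraries spread from -0.93 to -0.20. The exact two-sided permutation p for tau in Ch25h+/+ was 0.0286, the smallest that 4 against 4 allows. It was 0.114 after Benjamini-Hochberg adjustment over 8 tests and did not pass. Even this smallest p cannot pass on its own after that adjustment, so the test cannot decide whether the ratio differed.

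Genes near Csf1 on chromosome 3 also differed with tau. Within 5 Mb of Csf1, 104 other genes were tested, and 7 of them, or 6.73%, passed for tau in Ch25h+/+, with 2 higher and 5 lower. On chromosome 3 as a whole 3.09% passed, and over all genes tested 1.56%. The neighbours that fell were Phtf1, Capza1, Inka2, AI504432 and I830077J02Rik, and those that rose were Slc16a1 and Cd53. In Ch25h-/- none of the 104 neighbours passed for tau, where 0.0395% of all genes did. With loss of Ch25h in Tau+, where both groups are Tau+, 8 of the 104, or 7.69%, passed, against 3.55% of all genes. In that comparison, which shares the Ch25h+/+ Tau+ libraries, Phtf1 (0.49), Capza1 (0.74) and AI504432 (0.61) were higher and Slc16a1 (-0.46) and Cd53 (-0.65) lower. Whether linkage to the transgene has a part in the Csf1 value was not tested.

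Among the lineage factors, Spi1 (chromosome 2, 91082390 to 91115756, plus strand) encodes PU.1, the master regulator of myeloid genes, Csf1r among them. It read 4.25, 4.27, 4.48 and 4.79 CPM in Ch25h+/+ Tau- and 7.28, 8.23, 9.61 and 10.3 CPM in Ch25h+/+ Tau+. In Ch25h-/- it read 3.61 to 4.41 CPM in Tau- and 3.44 to 4.12 CPM in Tau+. The lowest Ch25h+/+ Tau+ library lay above all 12 others. The tau effect in Ch25h+/+ was 0.99 on the log2 scale (standard error 0.14, adjusted p 0.000457).

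Irf8 (chromosome 8, 120736358 to 120756694, plus strand) encodes an interferon regulatory factor that partners with PU.1. It read 4.79, 6.02, 6.98 and 7.38 CPM in Ch25h+/+ Tau- and 10.6, 12.1, 13.5 and 16.3 CPM in Ch25h+/+ Tau+. Its Ch25h-/- libraries lay at 4.82 to 6.57 CPM in Tau- and 4.93 to 8.51 CPM in Tau+. As for Spi1, no library of the other groups reached the lowest of Ch25h+/+ Tau+. The tau effect in Ch25h+/+ was 1.06 on the log2 scale (standard error 0.18, adjusted p 0.00225).

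Runx1 (chromosome 16, 92601466 to 92826149, minus strand), a hematopoietic factor, was the least covered, with 13 to 51 counts per library. It averaged 1.10 ± 0.232 CPM in Ch25h+/+ Tau- and 1.90 ± 0.517 in Ch25h+/+ Tau+, 1.29 ± 0.327 in Ch25h-/- Tau- and 1.17 ± 0.454 in Ch25h-/- Tau+ (SD, n = 4 each). Its Ch25h+/+ Tau+ libraries read 1.17, 1.94, 2.09 and 2.38 CPM, and the lowest fell within the range of every other group. The log2 fold change with tau in Ch25h+/+ was 0.80, as large as that of Csf1, but with a standard error of 0.30 and an adjusted p of 0.314.

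Mef2c (chromosome 13, 83504034 to 83667080, plus strand) was the most abundant of the 7, at 41.8 CPM per kb over the 16 libraries against 17.5 for Csf1r and 0.113 for Runx1. It averaged 611 ± 45.9 CPM in Ch25h+/+ Tau-, 597 ± 73.3 in Ch25h+/+ Tau+, 687 ± 60.2 in Ch25h-/- Tau- and 735 ± 49.7 in Ch25h-/- Tau+ (SD, n = 4 each). It thus did not share the Ch25h+/+ Tau+ peak, and its order followed Ch25h genotype. Neither loss of Ch25h passed the threshold, with 0.30 (standard error 0.09, adjusted p 0.0743) in Tau+ and 0.17 (0.09, 0.306) in Tau-. The 7 neuron markers summed to 7695 to 8261 CPM in Ch25h+/+ Tau+ and 7032 to 8077 CPM in Ch25h-/- Tau+, and their part in the Mef2c value was not tested. DESeq2 (adjusted p 0.026) and limma-voom (0.03) called Mef2c higher in Ch25h-/- Tau+, as did edgeR without Ch25h+/+ Tau+ replicate 2 (0.0323). With the rRNA class as a covariate the value was 0.23 and the adjusted p 0.976, the highest over all alternatives.

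In Ch25h-/-, the same tau contrast gave 0 of 7 genes past the threshold, with 0.0395% of all genes called by edgeR. None of the 7 had an unadjusted p under 0.05, and DESeq2 and limma-voom also called 0. Over all genes 3.68% had such a p. The log2 fold changes were 0.11 for Csf1r, 0.06 for Csf1, -0.03 for Spi1, 0.25 for Irf8 and -0.16 for Runx1, with standard errors of 0.08, 0.10, 0.15, 0.18 and 0.31. Prnp, read as a check of tau status, rose by 1.10 in both genotypes, though the labels give no basis for that use. Mapt, the gene that encodes tau, did not separate Tau+ from Tau-. It averaged 526 CPM in Tau+ and 551 in Tau- of Ch25h+/+, and 513 and 483 in Ch25h-/-, with overlapping libraries.

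**Figure D2:**
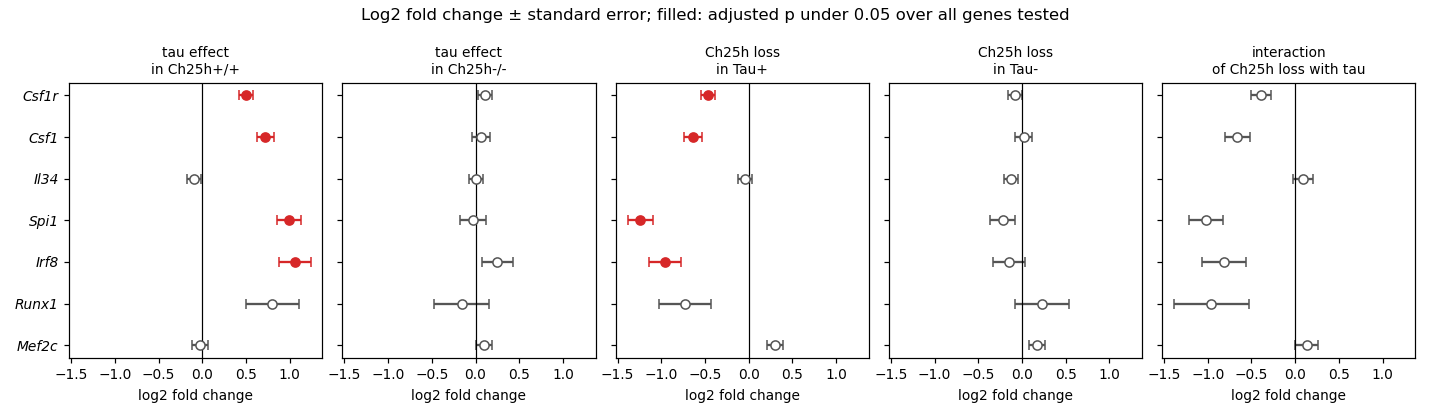
Log2 fold change (x axis) with its standard error for the 7 genes (rows) in 5 comparisons (panels); filled red points passed an adjusted p of 0.05 over all genes tested. Csf1r, Csf1, Spi1 and Irf8 are filled for tau in Ch25h+/+ and, on the other side of 0, for Ch25h loss in Tau+. No gene is filled in the other 3 panels.

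The interaction tests whether the tau effect differed between the genotypes. It was -0.39 for Csf1r (standard error 0.11, p 0.00268), -0.66 for Csf1 (0.14, p 0.000157), -1.02 for Spi1 (0.20, p 7.43e-05), -0.81 for Irf8 (0.25, p 0.00464) and -0.96 for Runx1 (0.43, p 0.0379), by edgeR and unadjusted. So 5 of the 7 genes had an unadjusted p under 0.05, as did 4.13% of all genes. After adjustment 0 passed in edgeR, with 0.1 for Csf1 and Spi1 and 0.0338% of all genes called. Leaving out 1 library moved that share over 1.5 times for 8 of 16 libraries, within 0.00% to 0.122%. DESeq2 called Csf1 (0.0103) and Spi1 (0.011) and limma-voom called 0. The adjusted p ranged over all alternatives from 0.0103 to 0.246 for Csf1 and from 0.011 to 0.211 for Spi1. 

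Loss of Ch25h in Tau+ lowered the same 4 genes, a comparison that shares its Ch25h+/+ Tau+ libraries with the tau effect above. Spi1 was 2.36-fold lower (log2 fold change -1.24, standard error 0.14, adjusted p 0.000117) and Irf8 1.94-fold lower (-0.96, 0.18, 0.0078). Csf1 was 1.55-fold lower (-0.64, 0.10, 0.00183) and Csf1r 1.38-fold lower (-0.47, 0.08, 0.00404). These 4 of 7 stand beside 3.55% of all genes called and 2.40% called lower, and their libraries did not overlap, as for 5.74% of genes in that direction. The share of all genes called rests on single libraries, from 0.602% without Ch25h+/+ Tau+ replicate 4 to 9.42% without Ch25h-/- Tau+ replicate 1, and 7 of 16 libraries moved it over 1.5 times. Il34 (-0.04, standard error 0.08) and Runx1 (-0.73, 0.30, adjusted p 0.151) did not pass.

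With the rRNA class as a covariate all 4 calls were lost, while the values stayed at -1.27 for Spi1, -0.99 for Irf8, -0.59 for Csf1 and -0.50 for Csf1r (edgeR adjusted p 0.0721, 0.606, 0.441 and 0.41). That fit rests on the single rRNA-poor Ch25h-/- library. It read 92.1 CPM for Csf1r, 25.2 for Csf1, 3.68 for Spi1 and 6.61 for Irf8, below all 4 Ch25h+/+ Tau+ libraries in each gene. Loss of Ch25h in Tau- called 0 of 7 genes in edgeR, DESeq2 and limma-voom, against 1.03% of all genes in edgeR. None had an unadjusted p under 0.05, as 20.9% of all genes did. Here 14 of 16 libraries moved the share called over 1.5 times, from 0.0167% without Ch25h+/+ Tau- replicate 1 to 7.25% without Ch25h+/+ Tau+ replicate 1. There the values were -0.08 for Csf1r, 0.02 for Csf1, -0.13 for Il34, -0.22 for Spi1, -0.15 for Irf8 and 0.23 for Runx1.

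In bulk tissue, more or fewer cells of a type and more or less RNA per cell cannot be told apart. To set the members beside the microglial content, a list of 15 pan-microglial markers was read in the same libraries. The markers summed to 410 to 542 CPM in Ch25h+/+ Tau+ and to 307 to 386 CPM in the other 3 groups. Of the 15, 5 rose with tau in Ch25h+/+, among them Ptprc (CD45, log2 fold change 1.31), Cd68 (1.23), Laptm5 (0.75) and Cx3cr1 (0.51). The median was 0.44, and P2ry12 (0.17) and Tmem119 (0.02), both homeostatic surface markers, did not pass. With loss of Ch25h in Tau+, where the 4 members fell, 7 of the 15 markers fell and none rose (median -0.43), and their part in the member values was not tested.

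Csf1r was also read relative to the mean of these markers. The log2 difference within a library was 2.56 ± 0.12 in Ch25h+/+ Tau-, 2.62 ± 0.09 in Ch25h+/+ Tau+, 2.48 ± 0.05 in Ch25h-/- Tau- and 2.50 ± 0.03 in Ch25h-/- Tau+ (SD, n = 4 each). The difference between Ch25h+/+ Tau+ and Ch25h+/+ Tau- was 0.06, and that between the Ch25h genotypes in Tau+ was -0.12. The Ch25h+/+ Tau+ libraries (2.54 to 2.72) overlapped those of Ch25h+/+ Tau- (2.43 to 2.67), met those of Ch25h-/- Tau+ (2.47 to 2.54) at their edge, and lay above those of Ch25h-/- Tau- (2.43 to 2.53). None of the 4 comparisons passed, with exact permutation p of 0.0571 to 0.429 (0.114 to 0.49 after Benjamini-Hochberg adjustment over the 8 tests).

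Spi1 and Irf8 were also set against the markers. Spi1 lay at -1.68 ± 0.07 in Ch25h+/+ Tau-, -1.20 ± 0.16 in Ch25h+/+ Tau+, -1.87 ± 0.22 in Ch25h-/- Tau- and -1.98 ± 0.18 in Ch25h-/- Tau+. For Irf8 these were -1.24 ± 0.22, -0.66 ± 0.16, -1.35 ± 0.11 and -1.23 ± 0.29 (SD, n = 4 each). In both, the 4 Ch25h+/+ Tau+ libraries lay above all others. These 2 differences were read after the values were seen and have no test.

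**Figure D3:**
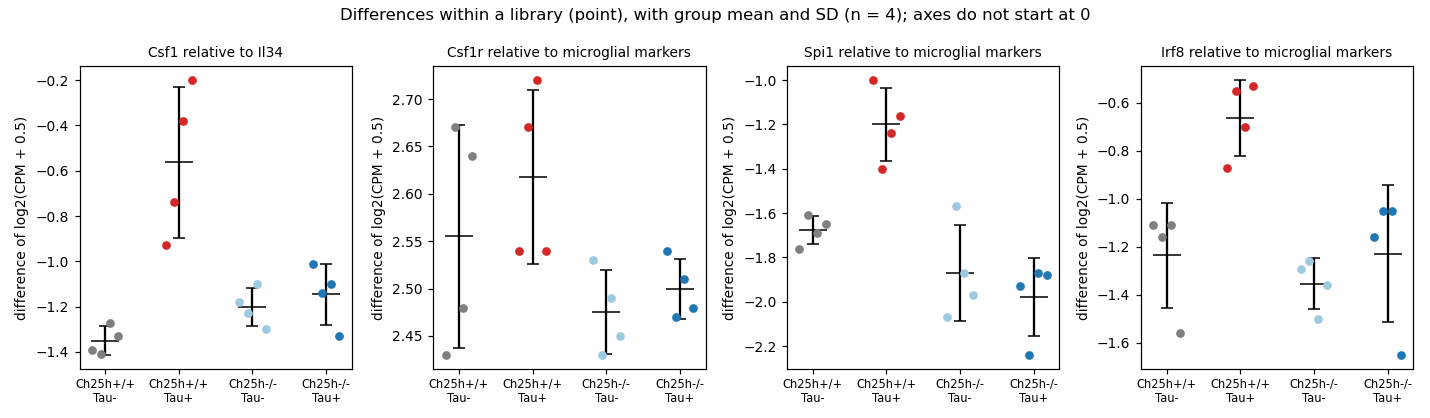
Difference of log2(CPM + 0.5) within each library (y axis, not from 0) for Csf1 less Il34 and for Csf1r, Spi1 and Irf8 less the mean of 15 microglial markers, by group; points are libraries, bars the mean and SD of 4. All 3 microglial genes have their highest mean in Ch25h+/+ Tau+, where Csf1r lies at 2.54 to 2.72 and overlaps Ch25h+/+ Tau-, while Spi1 and Irf8 lie above every other library.

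Border macrophages also depend on Csf1r, and their 7 markers summed to 12.7 to 21.7 CPM in Ch25h+/+ Tau+ and to 6.05 to 16.8 CPM in the other groups, with no marker at 0. Ms4a7 rose with tau in Ch25h+/+ (log2 fold change 1.83) and the other 6 did not pass. Of the 6 astrocyte markers Gfap rose (2.46) and the other 5 did not pass. Astrocytes can make Csf1. With loss of Ch25h in Tau+, Gfap (-1.96, adjusted p 0.000767) and Ms4a7 (-1.39, 0.037) fell, as the 4 members did. With the rRNA class as a covariate both calls were lost, at -2.01 for Gfap (edgeR adjusted p 0.306) and -1.76 for Ms4a7 (0.769). The part of these cells in the member values was not tested. The 7 monocyte and neutrophil markers summed to at most 2.47 CPM in any library, the 4 B cell markers to at most 1.42 CPM and the 5 T cell markers to at most 13.6 CPM. All 7 oligodendrocyte markers (median 0.28) and all 6 endothelial and mural markers (0.30) had values above 0 with tau in Ch25h+/+, and with loss of Ch25h in Tau+ 6 of 7 and 4 of 6 lay below 0. None of these passed.

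The genes that carry the signal of the receptor moved in part. Of 25 CSF1R signalling genes, all tested, 4 rose with tau in Ch25h+/+ and none fell, with a median of 0.05. They were Tyrobp, the DAP12 adaptor (log2 fold change 1.38, adjusted p 6.52e-05), Ptpn6, the phosphatase SHP-1 (1.04, 0.00428), Pik3cg, a phosphoinositide kinase (0.89, 0.0123), and Lyn, a Src family kinase (0.66, 0.0267). With loss of Ch25h in Tau+, Tyrobp (-1.38), Ptpn6 (-0.95) and Lyn (-0.62) were among the genes that fell, and none rose. The members used in most cell types gave small values, such as 0.03 for Mapk3, -0.03 for Grb2 and 0.01 for Akt1 with tau in Ch25h+/+, and none of these passed.

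Among related growth factors and their receptors, 12 genes, 9 were tested and 3 rose with tau in Ch25h+/+: Csf2rb2 (log2 fold change 1.56, adjusted p 0.0117), Csf2rb (1.30, 0.0234), both beta subunits for GM-CSF and related cytokines, and Csf3r, the G-CSF receptor (1.13, 0.000907). Csf2rb and Csf2rb2 are near-identical in sequence and may share reads, so their split is uncertain. The receptors Csf2ra (0.03), Flt3 (-0.02) and Kit (0.13) did not pass. Csf3r rose from 6.37 ± 0.951 to 13.9 ± 2.54 CPM (SD, n = 4 each) and fell with loss of Ch25h in Tau+ (-0.91, adjusted p 0.0078), where Csf2rb (0.0805) and Csf2rb2 (0.0894) did not pass. The ligands Csf2 and Csf3 and Il3 were not tested for lack of counts, and Csf2 had 0 counts in all 16 libraries. Of the other IL-34 receptors, Ptprz1 differed by 0.23 (adjusted p 0.674) and Sdc1 by 0.89 (0.0631) with tau in Ch25h+/+, and neither passed.

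**Figure D4:**
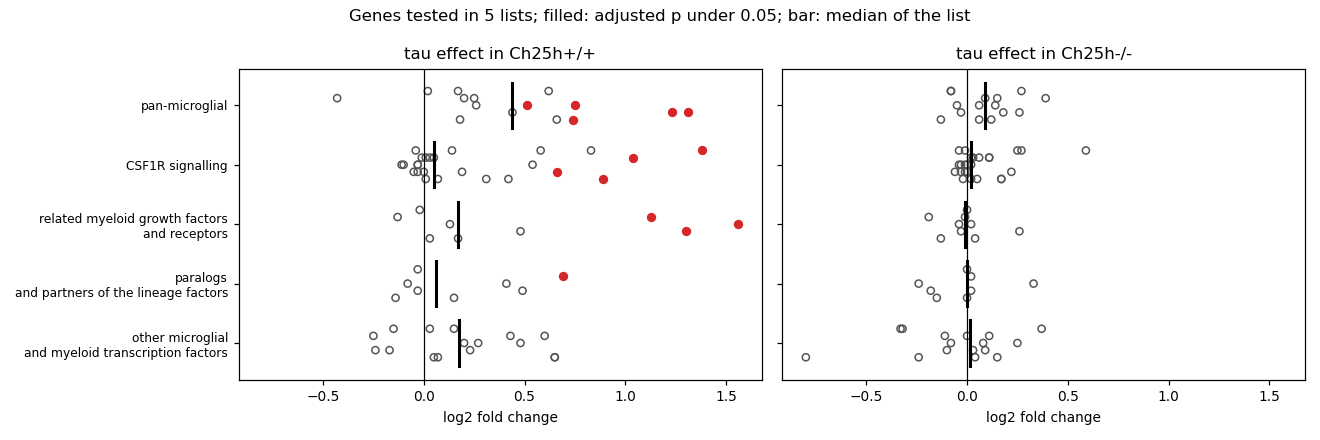
Log2 fold change with tau (x axis) of each gene tested in 5 lists (rows), in Ch25h+/+ (left) and Ch25h-/- (right); filled red points passed an adjusted p of 0.05 and bars are list medians. The left panel holds 13 filled points, all above 0, and the right panel holds 0.

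Paralogs and partners of the lineage factors gave 1 rise among 8 tested of 12 with tau in Ch25h+/+, Irf5 (log2 fold change 0.69, adjusted p 0.0164), an interferon regulatory factor of myeloid cells. Irf5 (-0.88) and Irf1 (-0.50) fell with loss of Ch25h in Tau+. The Mef2c paralogs Mef2a (-0.03) and Mef2d (-0.14) and the Runx partner Cbfb (0.15) did not pass with tau in Ch25h+/+. Of 16 other microglial and myeloid factors none passed with tau in Ch25h+/+ (median 0.17), among them Sall1 (0.27) and Ikzf1 (0.60).

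With loss of Ch25h in Tau+, 3 of these 16 fell: Cebpa (-0.86, adjusted p 0.00778), Cebpb (-0.84, 0.00402) and Bhlhe41 (-0.42, 0.0429). Cebpb averaged 17.3 ± 0.760 CPM in Ch25h+/+ Tau-, 19.1 ± 2.18 in Ch25h+/+ Tau+, 13.3 ± 2.31 in Ch25h-/- Tau- and 10.6 ± 2.19 in Ch25h-/- Tau+ (SD, n = 4 each). Both Ch25h-/- groups lay lower than both Ch25h+/+ groups in the mean, and its loss of Ch25h in Tau- did not pass (-0.37, adjusted p 0.145). In Ch25h-/- no gene of the 5 lists passed for tau.

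With the rRNA class as a covariate, nearly all calls of the lists for loss of Ch25h in Tau+ were lost, as those of the members were. Of the 7 microglial markers 0 stayed called, and of the 4 CSF1R signalling genes 1. Csf3r (-0.78), Irf5 (-0.84), Irf1 (-0.63), Cebpa (-0.67), Cebpb (-0.48) and Bhlhe41 (-0.46) were no longer called. Of these, Irf1 and Bhlhe41 had larger values than without the covariate and the other 4 smaller ones. Tyrobp was at -1.50 (edgeR adjusted p 0.0536). The calls of the lists for tau in Ch25h+/+ all stayed. No Ch25h+/+ library is rRNA-rich, so the covariate could not move those log2 fold changes and is no check of them.

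Promoter sequence was read for 2 of the genes that rose together, from RefSeq windows on GRCm38.p6, as 250 bases before the start, 5′ to 3′ on the gene's strand. Csf1 is chr3:107760470-107760719 (minus strand) with the ETS core GGAA, read by PU.1 and its relatives, in capitals on either strand. Irf8 is chr8:120736108-120736357 (plus strand) with the interferon-gamma activated type TTCNNNGAA, read by STAT factors, in capitals.
Csf1: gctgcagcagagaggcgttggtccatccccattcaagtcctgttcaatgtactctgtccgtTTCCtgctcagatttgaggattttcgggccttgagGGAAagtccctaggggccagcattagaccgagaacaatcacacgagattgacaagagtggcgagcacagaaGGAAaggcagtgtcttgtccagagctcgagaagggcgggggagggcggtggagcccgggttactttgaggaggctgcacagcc
Irf8: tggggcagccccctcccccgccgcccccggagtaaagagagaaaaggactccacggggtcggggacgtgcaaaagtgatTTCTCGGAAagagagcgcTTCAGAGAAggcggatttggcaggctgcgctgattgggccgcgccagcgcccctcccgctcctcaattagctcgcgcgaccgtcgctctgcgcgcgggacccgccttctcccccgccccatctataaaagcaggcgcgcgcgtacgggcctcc
The Csf1 window held GGAA 3 times, and 93.4% of 32851 windows of this length hold it. The Irf8 window held TTCNNNGAA 2 times, 171 and 153 bases before the start, and 7.02% of windows hold it. A second RefSeq window of Irf8 (chr8:120738389-120738638) held it 0 times, and 1 of the 3 windows of Mef2c, which did not rise, held it 1 time. The longer PU.1 type GAGGAAGT (2.44% of windows), the IRF type (GAAA, any 2 bases, GAAA; 2.98%) and the RUNX type TGTGGT (4614 of the windows), on both strands, were in no window of a member. Windows were read for Csf1, Irf8, Runx1 and Mef2c only, so Csf1r, Il34 and Spi1 were not searched for any of these motifs. TTCNNNGAA was added after the windows were read, and its central letters can overlap GGAA.

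Genes whose libraries varied most like a member within groups were named by the Pearson correlation of log2(CPM + 0.5) over 16 libraries after each group's mean was taken away, among 14481 genes. Picked as the highest among so many genes from 16 libraries, such values can be high by chance, and they were not tested. For Csf1r the genes were Cd33 (0.859), Zfp606 (0.846), Hk3 (0.840), Dock2 (0.830) and Fyb (0.823). For Csf1 they were Pros1 (0.872), Anxa3 (0.844) and Csf2rb (0.836), and for Spi1 As3mt (0.830), Tmem86a (0.828) and Mif4gd (0.788). For Irf8 they were Selenoo (0.822), Bnip3l-ps (0.811) and Elk1 (0.810), and for Runx1 A730056A06Rik (0.895), Ccser1 (0.872) and Zfp518b (0.849). Il34 was most like Hsbp1 (0.953), Cacybp (0.925) and Eid1 (0.921), and Mef2c most like Aplp2 (0.935), Tmx4 (0.930) and Usp33 (0.920).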

How the data were processed

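Tissue RNA was extracted with a PureLink kit and made into libraries with a SMARTer mRNA kit, per the labels' protocols. The values are raw read counts per gene, deposited by the authors as 1 table. STAR 2.7 and GRCm38 (mm10) are named in the submitters' processing notes, and the counting tool and its use of strand are not given in the sources used here. The table holds 54532 entries, of which 105 symbols are repeated, and 17736 genes passed edgeR's filterByExpr. One edgeR 4.0.16 quasi-likelihood fit (R 4.3.3) over all 16 libraries, with TMM scaling, gave two-sided tests, adjusted by Benjamini-Hochberg over all genes tested at 0.05. Standard errors were derived from the F statistic. CPM use TMM-scaled library sizes. Differences within a library used log2(CPM + 0.5) and exact two-sided permutation tests (scipy 1.17.1).

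The 7 members and all gene lists were chosen with earlier results of these data known. Named beside the members were, from each list, up to 6 genes past the threshold by p, and genes most like each member. Genes of the lists that did not pass were named after their values were seen. Some genes of the lists are not reported here by name. Gene positions and exon lengths are from GENCODE M21, and promoters from RefSeq (GRCm38.p6), which matched 4 of the 7. The fit was tested on simulated data. Alternatives were DESeq2 1.42.0, limma-voom (limma 3.58.1) with quality weights, other scaling and filters, the rRNA class as a covariate, and leaving out each library. Each SD is the spread between the libraries of a group, and the standard errors include spread between libraries.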

Additional observations from a re-analysis of the deposited data

Results flagged for a closer look

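Of 28 groups of 4 libraries (7 genes in 4 groups), 2 held a library far from the other 3, and chance flags about 1 group in 20. Spi1 read 4.412 CPM in Ch25h-/- Tau- replicate 2, where the other 3 libraries read 3.61 to 3.63 CPM. Mef2c read 542.6 CPM in Ch25h+/+ Tau- replicate 4, where the other 3 read 626 to 641 CPM. Over all alternatives, those without these libraries included, the loss of Ch25h in Tau- stayed between -0.30 and -0.19 on the log2 scale for Spi1 and between 0.07 and 0.23 for Mef2c, and neither was called.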

How the results depend on the processing

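Of 793 log2 fold changes of the 7 genes recomputed under the alternatives, 784 kept their side of the threshold and no called value changed sign. Among uncalled values, 7 had the opposite sign (at 2 decimals), all reported at 0.23 or less in size, such as Runx1 with loss of Ch25h in Tau- (0.23 as reported, -0.40 to 0.37 over the alternatives). With tau in Ch25h+/+, 4 of the 7 genes passed under every alternative, but the rRNA class covariate could not move these values. With loss of Ch25h in Tau+, the number was 0 with the rRNA class as a covariate, which leaves 1 Ch25h-/- library apart from the class, and 4 to 5 when each library was left out. DESeq2 and limma-voom gave 5, with Mef2c added. For the interaction, DESeq2 called 2 genes, Csf1 and Spi1, and every other alternative that gives one called 0 (a fit of only the 8 libraries compared gives no interaction). The counts over all genes varied more: 160 to 498 (277 as reported) for tau in Ch25h+/+, 10 to 1883 (629) for loss of Ch25h in Tau+, 0 to 1388 (182) for loss in Tau-, 0 to 57 (6) for the interaction and 2 to 28 (7) for tau in Ch25h-/-. The ratio of Csf1 to Il34 kept a tau effect in Ch25h+/+ of 0.67 to 0.91 when each library was left out. Runx1, with 13 to 51 counts per library, was not tested under a filter of 50 mean counts. No paired analysis was possible because the labels give the libraries no replicate numbers of their own.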

Other observations

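Whether Csf1r varied together with the other 6 genes inside the groups was computed over the 16 libraries after each group's mean was taken away, since the Ch25h+/+ Tau+ libraries stand apart and no pooled value is given. Pearson's r ran from -0.253 (Il34) to 0.474 (Runx1), with permutation p of 0.0971 to 0.604 and 0.337 to 0.604 after Benjamini-Hochberg adjustment over the 6 relations. Spearman's rho ran from -0.271 (Spi1) to 0.521 (Runx1), with permutation p of 0.076 to 0.756 and 0.416 to 0.756 after adjustment. None passed. Without the 2 libraries farthest from the median of Csf1r, Ch25h-/- Tau- replicates 1 and 2, r ran from -0.530 (Il34) to 0.641 (Runx1).

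The 5 choroid plexus markers summed to between 14.8 and 2727 CPM, with a wide spread in each of the 4 groups, and none of them was called in any comparison.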
